A study of Homo sapiens with 2 samples.

Results

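The tumour necrosis factor (TNF) ligand superfamily and the TNF receptor superfamily were compared between 2 arrays of SW620, an established cell line from a human colon carcinoma. Members were every gene on the arrays whose annotated symbol is a numbered TNFSF or TNFRSF name, or TNF, LTA, LTB, LTBR, FAS, FASLG, CD40, CD40LG, CD27, CD70, NGFR, EDAR, EDA2R, EDA or RELT. This rule found 45 genes with 55 probes, of 18638 annotated genes with 21706 probes. They divide into 17 ligands, 8 receptors with a death domain, 3 decoy receptors and 17 other receptors.

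One array held total RNA from SW620 cells with control lentiviruses and the other RNA from SW620 cells made to express CDR1AS, a circular RNA best known as a sponge of the microRNA miR-7. Per the labels, both cultures were kept in DMEM with 10% FBS and received no other treatment. The labels do not say how CDR1AS was delivered or whether the cells were clones or pools. No probe was matched to circular CDR1AS, so the arrays do not check their own labels. Each group was 1 array, so nothing below has a replicate error or a p-value, and no difference was tested. Bulk RNA cannot tell fewer expressing cells from less RNA per cell.

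Ligands of the superfamily are trimeric proteins, made at the cell surface and often shed from it, and each binds 1 or more receptors with cysteine-rich repeats. Receptors with a death domain can recruit FADD or TRADD and start apoptosis. Most others recruit TRAF adaptors and switch on NF-kB and MAP kinases. Decoy receptors bind a ligand without passing on the full signal, and several ligand genes, among them LTB and TNF, are themselves NF-kB targets.

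A probe was called above background where its spot was brighter than the mean of the blank spots plus 2 SD, which placed the limit at 69.1 intensity units for the control array and at 72.1 for the CDR1AS array. Of all gene probes, 84.4% passed that limit in the control cells and 87.2% in the CDR1AS cells. The log2 intensity of positive-control spots repeated within an array (24 each) varied with SDs between 0.10 and 0.24. Of 8 colon epithelium markers on the arrays, the control array showed 7 above background and the CDR1AS array 8. Their median log2 ratio was 0.02 with 0 past 2-fold, from CDX2 (170 and 109, −0.82) and EPCAM (8538 and 6334, −0.54) at the low end to VIL1 (607 and 755, 0.19) at the high end. Of 8 leukocyte markers, 5 were above background on each array and PTPRC, CD3D and MS4A1 on neither. Their summed level in the authors' deposited table was 103.9 for the control and 99.0 for the CDR1AS array. Of 6 fibroblast markers, DCN (236 and 243), LUM (187 and 162) and PDGFRB (151 and 169) were above background on both arrays, and COL1A1, COL1A2 and COL3A1 on neither. Of 5 endothelium markers, the control array showed 2 above background and the CDR1AS array 4, with TEK on neither. Their summed deposited level was 43.5 and 53.2. PECAM1 (66.4 and 98.3, a bound of 0.51) and CDH5 (69.0 and 72.3) passed on the CDR1AS array only. VWF (81.6 and 88.3, 0.04) and KDR (138 and 135, −0.15) passed on both.

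Of the 45 members, 41 were measured, meaning above background on at least 1 array, and 39 of these on both. Most were dim: 27 of the 41 lay under 2 times the background limit on at least 1 array. Their median log2 ratio, CDR1AS array over control array, was −0.02, with quartiles of −0.13 and 0.13. Over all 16685 genes measured the median was −0.01, with quartiles of −0.10 and 0.09. Among members above background on both arrays, 19 had a ratio above 0 and 20 below.

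At or past 2-fold there were 4 members of the 41 (9.76%), against 1.33% of all genes measured. TNFRSF11B, NGFR and FASLG were the 3 on the higher side, where the share over all genes was 0.755%. LTB was the 1 on the lower side, where that share was 0.575%. The family was taken up with earlier results of these arrays known, so the share is a description of these members and no support for anything particular to the family. The split of 3 higher to 1 lower was 4 to 4 after subtraction of the local background and 5 to 4 in the authors' deposited table, where the share of all genes past 2-fold was also larger, at 7.97% and 5.73%.

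**Figure D1:**
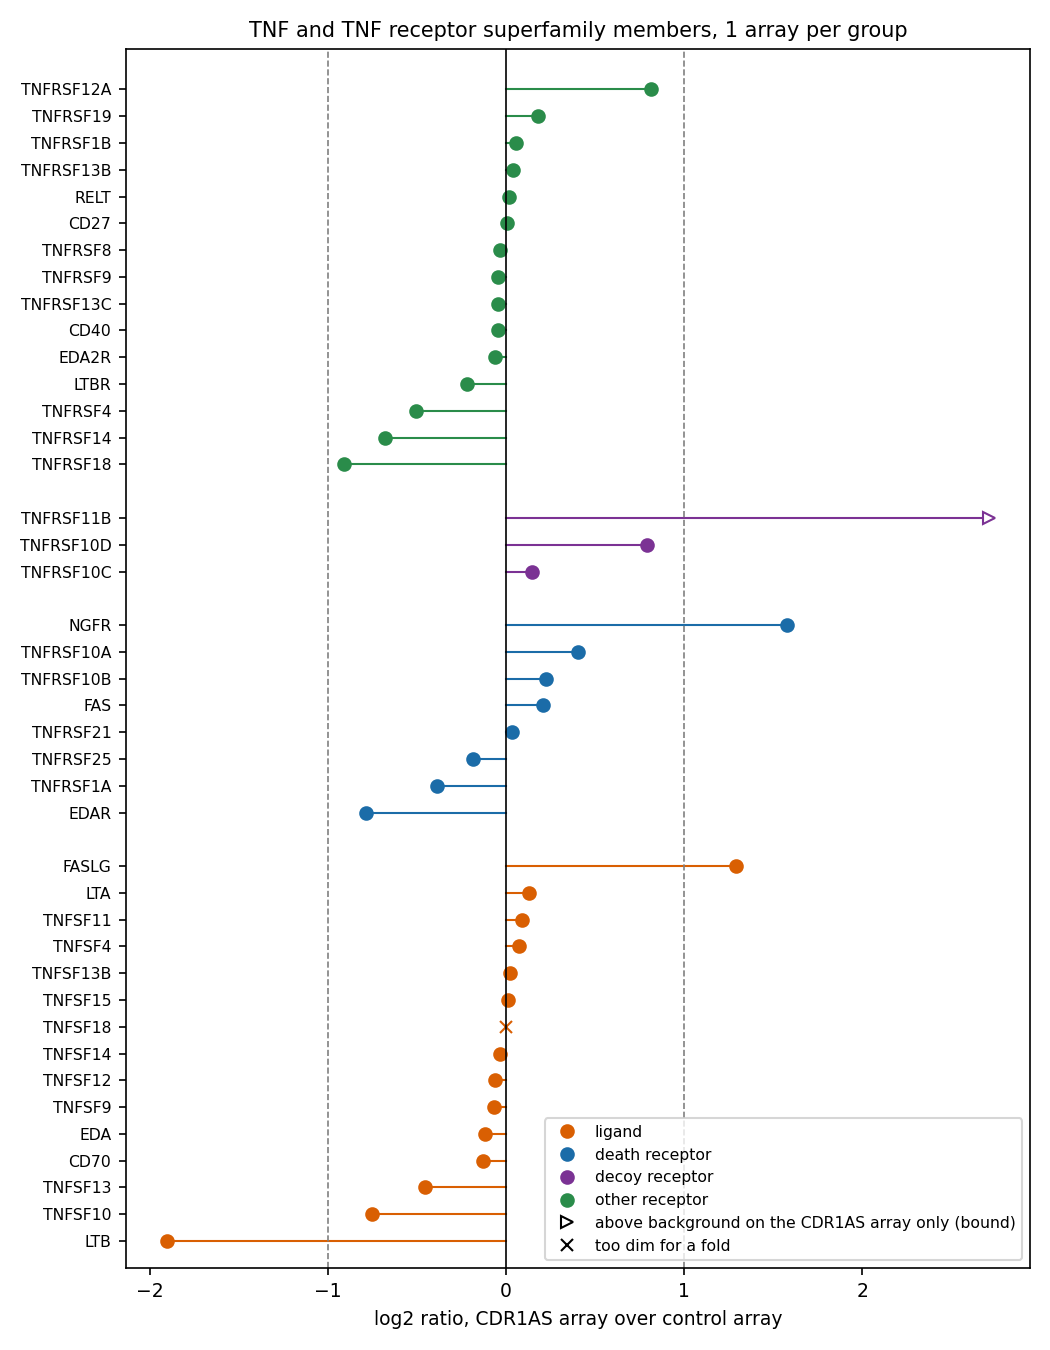
Log2 ratio of each of the 41 measured members (CDR1AS array over control array), grouped by role, 1 array per group and no error bars. Dashed lines mark 2-fold: TNFRSF11B (2.71, a lower bound drawn as an open triangle), NGFR and FASLG lie beyond it on the right and LTB (−1.90) on the left, and TNFSF18, too dim for a fold, is a cross.

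Among the ligands, LTB was lower and FASLG higher on the CDR1AS array, and most of the others lay close to 0. The 15 measured ligands had a median log2 ratio of −0.03. LTB encodes lymphotoxin beta, which anchors lymphotoxin alpha in the membrane and signals through the LTBR receptor. Its spot had 1714 units in the control and 501 with CDR1AS. This is 24.8 and 6.96 times the background limit, so LTB was far from the floor on both. It was 3.74-fold lower (log2 ratio −1.90), rank 13 from the lowest of all genes measured. In the authors' deposited table it was 785.5 against 197.6, or 3.98-fold lower. Across the alternatives its log2 ratio ran from −1.99 in that table to −1.59 with the local background subtracted, which was 988 beside the control spot and 104 beside the CDR1AS spot. LTB lies on chromosome 6 beside TNF and LTA. LTA did not show the difference of LTB, and TNF was too dim to show one. LTA, the soluble lymphotoxin, had spots of 125 and 144 and a log2 ratio of 0.13, and its other probe was not above background. TNF itself was not above background on either array, with spots of 67.8 and 71.3. The 10 nearest measured genes flanking the LTA, TNF and LTB stretch had a median of −0.04, from −0.31 (HCP5) to 0.30 (MICB).

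FASLG encodes Fas ligand, which triggers apoptosis in cells carrying FAS and is best known from cytotoxic lymphocytes. Its brighter probe had a spot of 228 in the control and 584 with CDR1AS, or 2.45-fold higher (1.29). Its other probe gave 158 and 323, with a log2 ratio of 0.99, so both probes pointed the same way by similar amounts. For the brighter probe the local background was 219 on the control array, close to the spot itself, and 367 on the CDR1AS array. For the other probe it was 160 on the control array, above the spot itself, and 276 on the CDR1AS array. With the local background subtracted the log2 ratio of FASLG was 1.23. The part of the local background in the difference was not tested. The authors' deposited table held 77.1 and 235.6 for the brighter probe. The family members next to FASLG on chromosome 1, TNFSF18 and TNFSF4, were near the floor. TNFSF4, the ligand of OX40, had spots of 72.1 and 79.4 (0.07), and the 10 flanking genes had a median of 0.13, from −0.10 (PIGC) to 0.64 (DNM3). Of the lymphocyte markers, CD3E was close to background on both arrays (82.3 and 84.4, log2 ratio −0.05), and PTPRC and CD3D were above background on neither. NKG7, a cytotoxic cell marker, was also near the floor but higher with CDR1AS, at 72.2 and 84.1 (0.17), and at 3.1 and 6.7 in the authors' deposited table. The other leukocyte markers measured were below 0: CD14 (122 and 120, −0.13), LYZ (201 and 203, −0.09) and ITGAM (69.3 and 72.6, −0.02). The part of other cells in the FASLG difference was not tested.

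TNFSF10 encodes TRAIL, the ligand of the TNFRSF10 receptors and an interferon-inducible gene. Its spot was 414 in the control and 271 with CDR1AS, 1.69-fold lower (−0.76), and −0.30 with the local background subtracted. TNFSF13, known as APRIL, a survival factor for plasma cells, had 145 and 117 and a log2 ratio of −0.46, which was −0.01 with that subtraction. Its neighbour TNFSF12, which encodes TWEAK, had 82.5 and 84.2 (−0.06). The remaining ligands differed little. TNFSF11, the RANK ligand that drives osteoclast formation, had 181 and 205 (0.09), and TNFSF9, the ligand of the co-stimulatory receptor TNFRSF9, had 152 and 156 (−0.07). CD70 (91.4 and 89.6, −0.13) and EDA (73.1 and 72.5, −0.12) were at the lower edge of this group. TNFSF13B, TNFSF14 and TNFSF15 had log2 ratios from −0.03 to 0.02 and lay close to the background limit. TNFSF18, with spots of 68.5 and 72.6, was above background on the CDR1AS array only and too dim for a fold, and TNFSF8 (64.7 and 69.0) on neither.

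The upstream sequences of 4 members that differed are shown because they hold matches to motifs of the pathways that regulate this family. RefSeq promoter windows (GRCh38.p14), read from 250 bases before the gene start up to it, were used for 29 of the 45 members, matched by gene identifier. Capitals mark a match on either strand: the NF-kB consensus in LTB and TNFRSF14, and the interferon-stimulated response element (TTTC, any 2 bases, TTTC) in TNFSF10 and FASLG. TNFRSF14, described with the receptors, is shown beside LTB for its match.
LTB, chr6:31582425-31582674, minus strand: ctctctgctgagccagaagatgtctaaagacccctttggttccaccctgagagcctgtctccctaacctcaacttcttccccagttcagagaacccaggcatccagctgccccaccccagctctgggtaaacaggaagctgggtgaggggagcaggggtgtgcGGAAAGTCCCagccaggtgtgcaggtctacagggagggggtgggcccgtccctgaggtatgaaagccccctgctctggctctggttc
TNFRSF14, chr1:2556121-2556370, plus strand: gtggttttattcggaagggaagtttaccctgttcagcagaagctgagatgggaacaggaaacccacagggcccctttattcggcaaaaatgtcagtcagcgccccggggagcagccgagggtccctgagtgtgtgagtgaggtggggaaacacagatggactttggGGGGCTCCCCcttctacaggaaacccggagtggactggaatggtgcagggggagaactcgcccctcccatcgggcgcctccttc
TNFSF10, chr3:172523431-172523680, minus strand: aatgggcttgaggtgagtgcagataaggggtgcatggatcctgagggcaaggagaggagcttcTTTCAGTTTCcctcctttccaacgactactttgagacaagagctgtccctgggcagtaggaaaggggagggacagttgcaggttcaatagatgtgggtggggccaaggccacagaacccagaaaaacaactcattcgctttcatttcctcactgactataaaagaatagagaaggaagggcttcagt
FASLG, chr1:172658853-172659102, plus strand: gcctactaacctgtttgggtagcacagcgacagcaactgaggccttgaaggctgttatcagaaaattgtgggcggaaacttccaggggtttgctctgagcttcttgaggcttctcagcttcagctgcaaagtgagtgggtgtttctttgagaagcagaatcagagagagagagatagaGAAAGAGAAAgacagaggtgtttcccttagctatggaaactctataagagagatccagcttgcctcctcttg

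The match lies at position −87 of LTB and −84 of TNFRSF14, where −1 is the base before the start, and at −187 of TNFSF10 and −72 of FASLG. Of the 40 windows of members, 9 (22.5%) held the NF-kB consensus, against 5.21% of all 35116 windows of the same length. The set of all windows was not filtered by chromosome. The 9 belong to 7 genes, since LTB and TNFSF14 each have a pair of overlapping windows with the same match. These genes differed in direction on the arrays: LTB (−1.90), TNFRSF14 (−0.68) and TNFSF13 (−0.46) were below 0, LTA (0.13) and FAS (0.21) above, and TNFSF14 (−0.03) and TNFRSF9 (−0.04) close to 0. The interferon-stimulated element was in 5 windows of members (12.5%, against 3.02% of all windows), those of FASLG (1.29), TNFSF10 (−0.76), TNFSF9 (−0.07), TNFSF13B (0.02) and TNFRSF1B (0.06). The AP-1 site TGANTCA was in 7 (17.5%, against 6.57%). A match is a description of these letters and does not show that a factor binds there.

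Among the receptors with a death domain, NGFR was higher on the CDR1AS array and EDAR lower, and the receptors for TRAIL and Fas ligand were slightly higher. All 8 were above background on both arrays, with 5 ratios above 0, 3 below and a median of 0.12. NGFR encodes the low-affinity neurotrophin receptor, which binds nerve growth factor rather than a TNF ligand. Its spot was 128 in the control and 380 with CDR1AS, 2.98-fold higher (1.58). The authors' deposited table held 29.6 and 142.1, or 4.80-fold, and the log2 ratio stayed past 2-fold with the local background subtracted (1.21). The control spot was 1.85 times the background limit, so the fold on the main scale is compressed. The 10 genes flanking NGFR on chromosome 17 had a median of −0.04, from −0.34 (SLC35B1) to 0.10 (SPOP).

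TNFRSF10A and TNFRSF10B encode the death-inducing TRAIL receptors. TNFRSF10A had spots of 283 and 400 (0.40, and 1.14 with the local background subtracted). That background was 280 beside the control spot, close to the spot itself, and 207 beside the CDR1AS spot. TNFRSF10B had 543 and 687 (0.22), but −0.71 with that subtraction, so its direction depended on the setting. FAS, the receptor of Fas ligand, had 102 and 124, a log2 ratio of 0.21, and 0.04 with the subtraction.

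TNFRSF1A, the main TNF receptor, had spots of 605 and 507 (−0.39). Its other probe, at 91.4 and 96.5, gave −0.01, so its probes did not show the same difference. EDAR, the ectodysplasin receptor of hair, tooth and sweat gland development, had 151 and 99.6, 1.72-fold lower (−0.79), and the authors' deposited table held 40.7 and 13.8, or 2.95-fold lower. With an offset of 16 EDAR was past 2-fold (−1.16), and with the local background subtracted it was −0.35. TNFRSF25, the receptor of TNFSF15, had 270 and 260 (−0.19), and TNFRSF21, a death domain receptor known from neurons and lymphocytes, had 80.0 and 86.0 (0.03).

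All 3 decoy receptors had ratios above 0 in the main setting, as did 7874 of all 16685 genes measured. Each of the 3 was under 2 times the background limit on at least 1 array. The largest ratio of the family was that of TNFRSF11B. TNFRSF11B encodes osteoprotegerin, a secreted receptor that captures the RANK ligand TNFSF11 and also binds TRAIL. Its spot was 67.6 on the control array, under the limit of 69.1, and 403 on the CDR1AS array, 5.60 times the limit there. It was at least 6.54-fold higher, rank 3 from the highest of all genes measured. The authors' deposited table has 152.7 for the CDR1AS array and an empty cell for the control array. With the local background subtracted the bound was 0.86 on the log2 scale, within 2-fold. On the CDR1AS array the local background beside this spot was 251, against 52.2 on the control array, and its part in the result was not tested. The 10 measured genes flanking it on chromosome 8 had a median of 0.04, from −0.15 (TAF2) to 0.69 (EXT1). Being above background on the CDR1AS array only was seen for 628 genes, or 3.76% of all genes measured, and for TNFRSF11B and TNFSF18 among the members.

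TNFRSF10D encodes a TRAIL receptor with a truncated death domain. It had 95.1 and 165 (0.79, or 1.73-fold higher), and 14.0 and 43.7 in the authors' deposited table, 3.12-fold higher there. With an offset of 16 its log2 ratio was 1.15, and with the local background subtracted 0.16. TNFRSF10C, a TRAIL receptor anchored in the membrane by a lipid and without a death domain, had 90.7 and 105 (0.15), and −0.04 with that subtraction. The genes of TNFRSF10B, TNFRSF10C, TNFRSF10D and TNFRSF10A are neighbours on chromosome 8 with no other gene of the array between them. All 4 ratios were above 0 in the main setting, while TNFRSF10B and TNFRSF10C were below 0 with the local background subtracted. The 10 measured genes flanking this cluster had a median of 0.02, with 6 above 0 and 4 below.

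**Figure D2:**
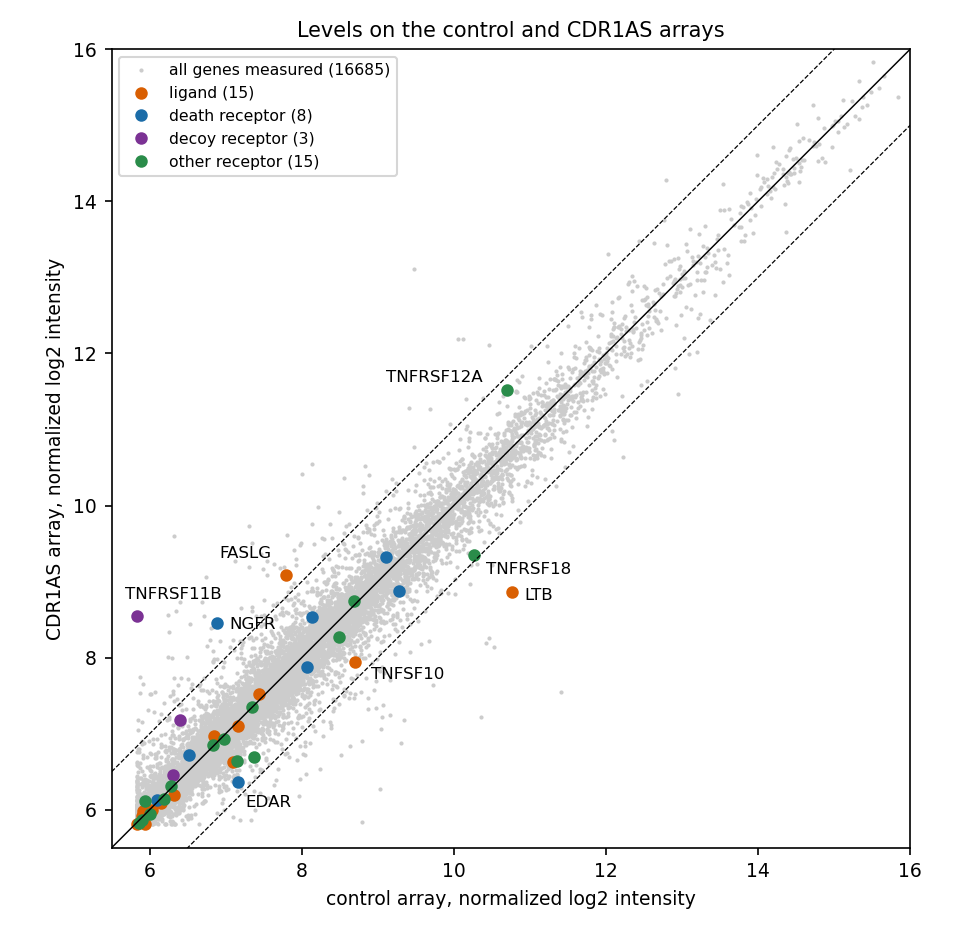
Normalized log2 intensity of each gene on the control array (x) and the CDR1AS array (y), with all 16685 measured genes in grey and the members coloured by role. The solid line marks equal levels and the dashed lines 2-fold: most members lie on the solid line at the dim end, and TNFRSF11B, NGFR, FASLG and LTB lie outside the dashed lines.

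Of the 17 other receptors, 15 were measured and 0 were past 2-fold, with a median of −0.04. TNFRSF12A, the receptor of TWEAK, which is known to be induced by growth factors and injury, was the highest. Its brighter probe had spots of 1638 and 3025, 1.76-fold higher (0.82), and its other probe 1006 and 1610 (0.60). Both probes were far above the background limit set by the blanks. With the local background subtracted the log2 ratio was 1.83. For the brighter probe that background was 1595 on the control array, close to the spot itself, and 622 on the CDR1AS array. For the other probe it was 870 and 409. The 10 genes flanking TNFRSF12A on chromosome 16 went the other way, with a median of −0.21 and 8 below 0.

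TNFRSF18, TNFRSF14 and TNFRSF4 were the lowest of this class. TNFRSF18 encodes GITR, a co-stimulatory receptor of T cells, and had spots of 1194 and 699, 1.88-fold lower (−0.91). With the local background subtracted it was past 2-fold (−1.31). TNFRSF4, which encodes OX40, had 150 and 117 (−0.51) by its brighter probe and 124 and 110 (−0.30) by the other, and −0.09 with that subtraction. TNFRSF14 encodes HVEM, the receptor of TNFSF14 and a ligand of BTLA. It had 173 and 121, 1.60-fold lower (−0.68), and 2.17-fold lower in the authors' deposited table (51.1 and 23.6). Its log2 ratio was −0.22 with the local background subtracted.

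TNFRSF18 and TNFRSF4 are adjacent on chromosome 1. Their 10 flanking genes were all below 0, with a median of −0.19 and HES4 lowest at −1.09. Around TNFRSF14, on the same chromosome, 8 of 10 flanking genes were below 0 (median −0.15). Most genes around these receptors were thus below 0 too, by smaller amounts at the median. Over all 16685 genes measured 8800 were below 0. Around TNFRSF25 (−0.19), also on chromosome 1, 8 of 10 flanking genes were below 0 as well. TNFRSF8 and TNFRSF1B, further along chromosome 1, had ratios of −0.04 and 0.06, with a flanking median of −0.04.

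The remaining receptors gave small ratios. LTBR, the receptor of lymphotoxin beta, had spots of 361 and 336 (−0.22), and TNFRSF1B, the second TNF receptor, 410 and 459 (0.06, but −0.88 with the local background subtracted). CD27, the receptor of CD70, had 171 and 183 (0.01), TNFRSF13C, the BAFF receptor of B cells, 136 and 141 (−0.04), and RELT 124 and 134 (0.02). CD40, EDA2R, TNFRSF8, TNFRSF9, TNFRSF13B and TNFRSF19 had log2 ratios from −0.06 to 0.18, all on spots under 100 units. TNFRSF19 is the highest of these, and in the authors' deposited table it was 2.11-fold higher, at 3.5 and 7.4, which lies close to the blanks. TNFRSF11A, the RANK receptor, and TNFRSF17, the B cell maturation antigen, were above background on neither array.

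Ligands and their receptors were set side by side for 29 known pairs, of which 20 had both partners above background on both arrays. Pairs share genes and are not independent. The signs were the same in 9 and opposite in 11. The split was 10 to 10 with the local background subtracted, with scaling to a common median and with the median of the probes of a gene. TRAIL and its receptors made up 4 of the 7 pairs with a lower ligand and a higher receptor: TNFSF10 was at −0.76, while TNFRSF10A, TNFRSF10B, TNFRSF10C and TNFRSF10D were between 0.15 and 0.79. With the local background subtracted TNFRSF10B (−0.71) and TNFRSF10C (−0.04) were below 0, which left 2 TRAIL pairs among 5 of that kind. Another of the 7, CD70 and CD27, rests on a CD27 ratio of 0.01, which was −0.52 with that subtraction. The soluble TRAIL receptor TNFRSF11B, outside this count, was at least 6.54-fold higher in the main setting. With the local background subtracted its bound was 0.86 on the log2 scale. FASLG and FAS were both above 0 (1.29 and 0.21), and LTB and LTBR both below 0 (−1.90 and −0.22). For the TWEAK pair the receptor TNFRSF12A was at 0.82 and the ligand TNFSF12 at −0.06. For the ectodysplasin pair EDAR was at −0.79 and EDA at −0.12.

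**Figure D3:**
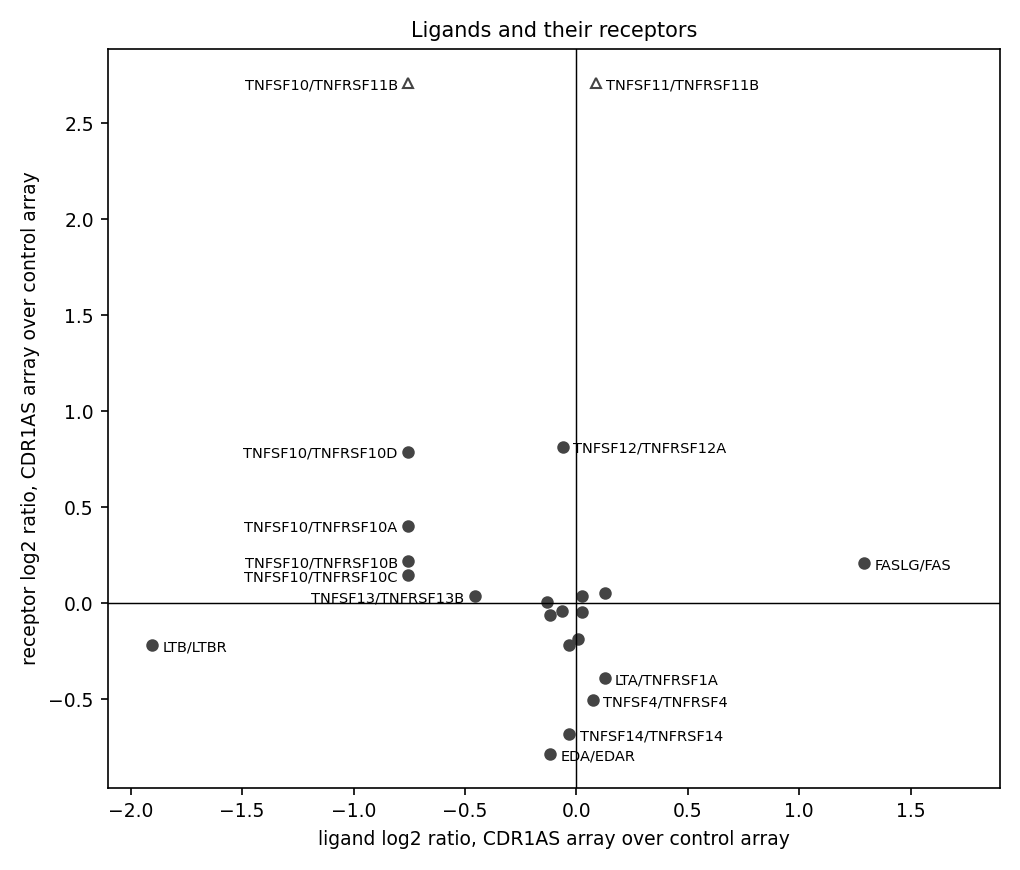
Log2 ratio (CDR1AS array over control array) of the ligand (x) and the receptor (y) in 22 ligand and receptor pairs; open triangles are the 2 pairs with TNFRSF11B, whose ratio is a lower bound. The TNFSF10 pairs stand in a column at −0.76 on the x axis with every receptor above 0 (TNFRSF10B and TNFRSF10C were below 0 with the local background subtracted), and LTB with LTBR lies at the far left.

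The shared signalling machinery downstream of the receptors was described from a list of its own. Of 42 adaptors, kinases, ubiquitin regulators, proteases and TNF-induced genes on the arrays, 41 were measured, all on both arrays. At or past 2-fold there were 0, which at this list size is close to the 1.33% of all genes measured. Of their ratios 14 were above 0 and 27 below (median −0.04), and over all genes measured 7874 were above and 8800 below (median −0.01). The highest were TANK, a TRAF-binding regulator (spots of 230 and 354, log2 ratio 0.54), IKBKG, the regulatory subunit of the IkB kinase (149 and 214, 0.46), and TNFAIP8, a TNF-induced gene (131 and 183, 0.42). With the local background subtracted TANK was at 0.09, and IKBKG and TNFAIP8 were below 0 (−0.26 and −0.43). The lowest were MLKL, which carries out necroptosis (448 and 321, −0.63), TRAF5, an adaptor of several co-stimulatory receptors (383 and 276, −0.61), and SPPL2A, a protease that cleaves TNF in the membrane (281 and 224, −0.46). MLKL was past 2-fold with the local background subtracted (−1.48).

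Among the death adaptors and caspases, FADD was at 0.19 and TRADD at −0.35, and with the local background subtracted they were at 0.63 and −0.82. CASP8 was at 0.07, CASP10 at 0.20, and CFLAR, the inhibitor of CASP8 activation, at −0.22. CASP10 was at 0.97 in the authors' deposited table. TNFAIP3, the NF-kB target that encodes the feedback inhibitor known as A20, had spots of 118 and 96.7 (−0.43). The IkB kinase subunits CHUK and IKBKB were at −0.14 and −0.11, and the sheddases ADAM17 and ADAM10 at −0.02 and −0.19. RIPK1, TRAF2 and BIRC3 were not analysed here.

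**Figure D4:**
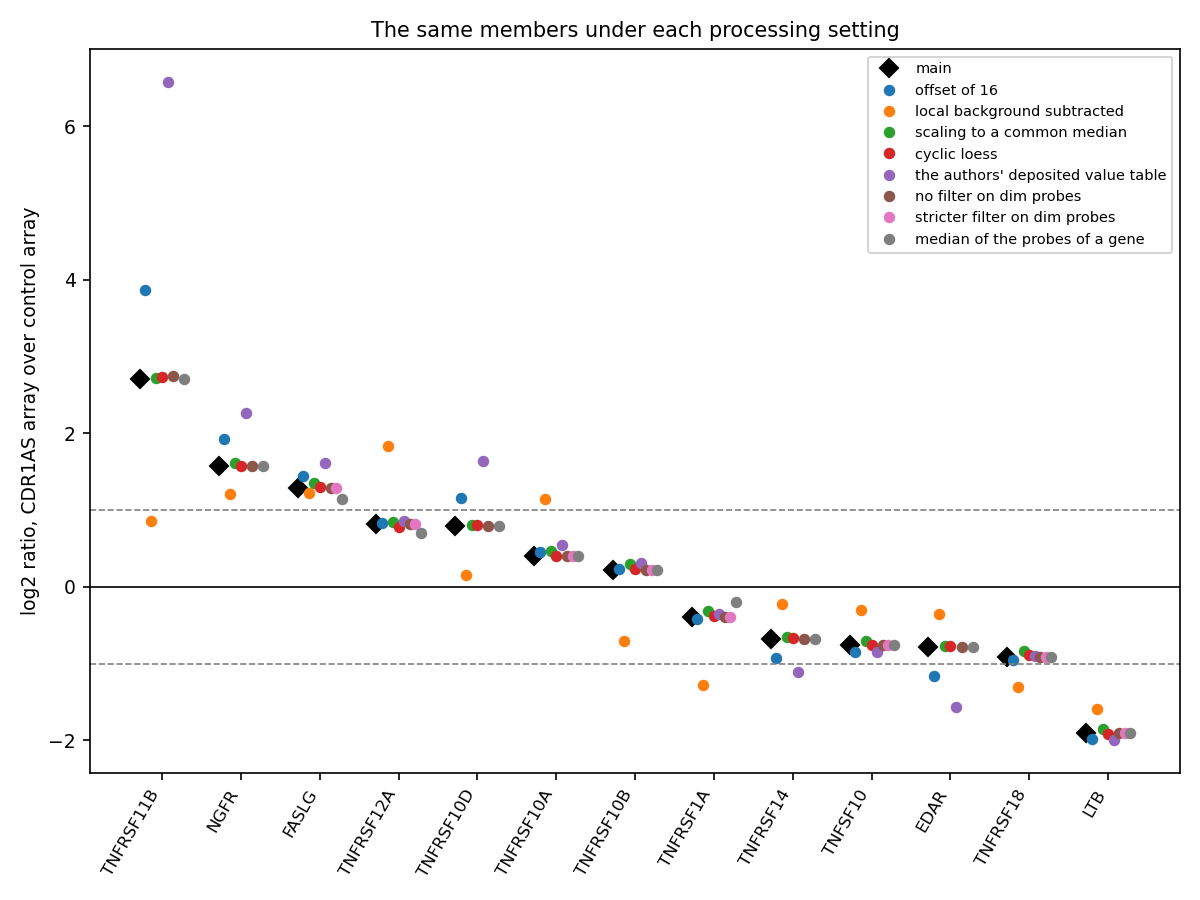
Log2 ratio (CDR1AS array over control array) of 13 members in the main setting (black diamonds) and under the alternatives (coloured circles, where a value exists); dashed lines mark 2-fold and values of TNFRSF11B are lower bounds, except with no filter on dim probes, where the probe's own values are plotted. LTB, NGFR and FASLG keep their side of 2-fold in every setting shown, TNFRSF11B drops within 2-fold with the local background subtracted, and TNFRSF10B changes sign there.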

How the data were processed

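Total RNA of 2 samples (1 control, 1 CDR1AS) was labelled with Cy5 on one-colour arrays. The deposited intensity of a spot is, per the file headers, its median brightness at 635 nm from 3 scanner gains, without background correction. How the authors joined the gains is not stated in the labels or headers. Of 24460 gene probes, 1 with a quality flag was left out. Spots were processed with limma 3.58.1 (R 4.3.3): normexp without the local background, an offset of 50, quantile normalization and log2. The local background column was not used in the main setting because it follows spot brightness (Pearson's r across probes 0.977 and 0.942 on the log scale). The offset compresses folds of dim genes. The authors' deposited table is a straight line of each array's intensity (largest residual 0.0510 and 0.0559 units), with blanks subtracted and a median of 25 on each array, on a linear scale with no centring.

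Each gene stands for its brightest probe. Where a gene was above background on 1 array only, the dim value was raised, where needed, to the lowest one above background there, and the fold is a bound. Genes were named from the platform annotation, and all 45 members matched RefSeq of GRCh38.p14, which served for neighbours and promoters; no source used here gives the build of the array design. Named were all members, by role, and the 3 highest and 3 lowest signalling genes, with further signalling genes as examples chosen after their values were seen. The members and lists were chosen with earlier results of these data known. In all, 8 alternatives were run. The normalization and fold steps were tested on simulated data, where recovery of known folds was required for bright spots only. That test sets no precision for dim members, and the choice of the brightest probe was not part of it. Precision is limited by the single array per group.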

Additional observations from a re-analysis of the deposited data

How the results depend on the processing

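The median log2 ratio of the members lay between −0.05 and −0.0038 over the 8 alternatives (offset, local background, scaling, loess, deposited table, both filters, median of probes). The count of members at least 2-fold higher, 3 in the main setting, was 5 in the authors' deposited table, where TNFRSF10D and TNFRSF19 were added, and 1 with the stricter filter, which keeps spots at 2 or more times the background limit on each array and left 14 members. With the local background subtracted it was 4, where TNFRSF11B was lost and TNFRSF10A and TNFRSF12A were added. An offset of 16 also gave 4, with TNFRSF10D added. The count at least 2-fold lower, 1 in the main setting, was 2 with an offset of 16, with EDAR added. It was 4 with the local background subtracted (LTB, TNFRSF18, TNFRSF1A and TNFRSF25) and 4 in the deposited table (LTB, EDAR, EDA and TNFRSF14). The count of signalling genes at least 2-fold higher went from 0 to 1 in the deposited table (TRAF1), and that of lower ones from 0 to 1 with the local background subtracted (MLKL). Over all genes the share past 2-fold was 1.33% in the main setting, 2.40% with an offset of 16, 5.73% in the deposited table and 7.97% with the local background subtracted. Apart from the counts that follow from fewer genes under the stricter filter and from the smaller offset, the cause was not tested. LTB and FASLG were past 2-fold in all 8 alternatives, and NGFR in the 7 that kept it. No paired analysis was possible because each group is 1 array. Signal over background limits the dim members: 27 of 41 were under 2 times the limit on at least 1 array.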
